A study of Mus musculus with 6 samples.

Results

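Neutrophils are short-lived blood phagocytes that are rare in a resting lymph node. They fill their granules in the bone marrow in a fixed order: primary (azurophil) granule proteases are made first, specific granule proteins such as lactoferrin follow at the myelocyte and metamyelocyte stages, and gelatinase granule proteins come last. The messenger RNAs of the specific granule are largely switched off before the cell enters the blood, while those of the alarmins, the late proteases and the receptors for chemokines and growth factors persist in the mature cell. The ratio of the early to the late messages is therefore commonly read as a sign of neutrophil maturity. Here 10 such genes were followed by symbol in inguinal lymph nodes of mice, 10 of 50559 genes in the table. They are the alarmins S100a8 and S100a9, Retnlg, Mmp8 and Mmp9, whose messages come late, the specific granule proteins Ngp, Camp and Ltf, and the receptors Cxcr2 and Csf3r. In what follows Ngp, Camp and Ltf are called the immature granule genes and the other 7 the mature genes.

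RNA was sequenced from 3 samples labelled Naringin and 3 labelled Control. Naringin, the bitter flavanone glycoside of grapefruit, was mixed into the food at 200 mg/kg per day before the nodes were taken. The labels state neither what the Control mice ate nor for how long naringin was fed, and give no strain, sex or age. They do not say whether each sample is a different animal, so a p-value here speaks only for the variation among these 6 samples, part of which may be technical. Depth ranged from 13074180 to 14976422 gene-assigned reads, so that 1 read was worth 0.0668 to 0.0765 CPM (reads per 1000000 reads of the library), the unit of all levels given here. Control 3 stood apart from the others: its chi-square per degree of freedom against each other library, which is about 1 for sampling noise alone, ran from 39.3 to 61.6, while that of the remaining pairs ran from 7.68 to 27.7. In bulk tissue, fewer cells of a type and less RNA per cell cannot be told apart.

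Of the label's defining markers, Ly6g, the surface antigen by which mouse neutrophils are usually recognised, had 11, 1 and 0 reads in Naringin 1, 2 and 3 and 0, 2 and 14 reads in Control 1, 2 and 3. The 10 genes were nevertheless read in every library, from 5 reads of Retnlg in Control 1 to 1587 reads of S100a9 in Naringin 1. Together they took 0.0321%, 0.0191% and 0.00649% of the reads in Naringin 1, 2 and 3, and 0.00736%, 0.00801% and 0.0336% in Control 1, 2 and 3. All 10 reached the minimum mean of 1 CPM and entered the test.

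The promoters of 4 granule genes are shown because they code for granule proteins and include all 3 immature granule genes and 1 mature gene, Mmp8. The protein of Mmp8 is also stored in specific granules, and the grouping used here goes by when the message is present. All 4 genes lie on mouse chromosome 9. Each sequence holds the 250 bases before the start of the RefSeq gene, read 5′ to 3′ on the strand of the gene, in build GRCm38.p6, which is older than the build named for the reads. Capitals mark matches on either strand to TTNNGNAA, a loose form of the site bound by C/EBP factors. C/EBP epsilon is the member of that family that mice need to make specific granules.
Ngp, chr9:110419558-110419807, plus strand: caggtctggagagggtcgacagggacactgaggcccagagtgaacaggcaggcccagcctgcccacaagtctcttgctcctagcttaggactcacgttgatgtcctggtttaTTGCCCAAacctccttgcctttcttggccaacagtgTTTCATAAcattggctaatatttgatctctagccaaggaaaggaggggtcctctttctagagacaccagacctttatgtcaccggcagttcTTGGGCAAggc
Ltf, chr9:111019042-111019291, plus strand: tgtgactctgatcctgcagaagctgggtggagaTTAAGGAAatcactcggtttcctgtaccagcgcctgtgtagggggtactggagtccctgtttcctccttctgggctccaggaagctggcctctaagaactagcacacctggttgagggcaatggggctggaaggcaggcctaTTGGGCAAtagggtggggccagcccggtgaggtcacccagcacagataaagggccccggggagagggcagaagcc
Camp, chr9:109849457-109849706, minus strand: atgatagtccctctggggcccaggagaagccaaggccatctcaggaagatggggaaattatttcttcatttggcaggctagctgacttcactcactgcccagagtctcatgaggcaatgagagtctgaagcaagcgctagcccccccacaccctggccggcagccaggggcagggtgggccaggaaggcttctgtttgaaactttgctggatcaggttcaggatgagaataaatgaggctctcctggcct
Mmp8, chr9:7558179-7558428, plus strand: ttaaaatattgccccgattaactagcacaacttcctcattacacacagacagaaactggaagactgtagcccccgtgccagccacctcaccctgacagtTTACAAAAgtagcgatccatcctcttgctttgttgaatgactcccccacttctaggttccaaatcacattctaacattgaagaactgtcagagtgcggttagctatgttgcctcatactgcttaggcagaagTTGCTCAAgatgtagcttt
The motif occurred 3 times before Ngp, 2 times before Ltf, 2 times before Mmp8 and 0 times before Camp. Of the 9 genes with a promoter in the RefSeq table, 6 held it at least once, against 36.8% of the 32851 promoters of the table over the same window. The form TTGGGCAA, singled out after the sequences were seen and itself a case of the same motif, stood 11 and, on the opposite strand, 138 bases before the start of Ngp and 75 bases before that of Ltf, and was present on either strand in 0.709% of all promoters. The core GAGGAA of the site for PU.1, a factor of all myeloid cells, was present on either strand in 5 of the 9 genes (S100a8, Mmp8, Ltf, Cxcr2 and Csf3r), against 23.3% of all promoters. A match describes letters in this window and no more.

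The question put to the 10 genes was whether they differ with naringin in the diet. None of them passed: 0 of 10 were called by limma, a linear model fitted to the 14873 genes whose mean reached 1 CPM, in which 0 genes (0%) passed at a Benjamini-Hochberg adjusted p under 0.05. At an unadjusted p under 0.05 there were again 0 of the 10, against 213 of all genes tested, or 1.43%. The limma adjusted p of every member was 0.9996. On whole reads recovered from the CPM values, DESeq2 called 3 genes, of which 0 were members, and edgeR's quasi-likelihood test called 0 (unadjusted p under 0.05 for 227 and 233 genes). In 0 of 10 members did all Naringin libraries lie on one side of all Control libraries, against 5.65% of all genes. Log2 folds were above 0 in 7 of 10, the mature genes, and below 0 in the 3 immature granule genes. Of all genes tested, 56.7% had a log2 fold above 0. The median log2 fold of the 10 was 0.43 and that of all genes tested 0.02. Folds are on the log2(CPM + 1) scale, which understates the change of low genes.

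**Figure D1:**
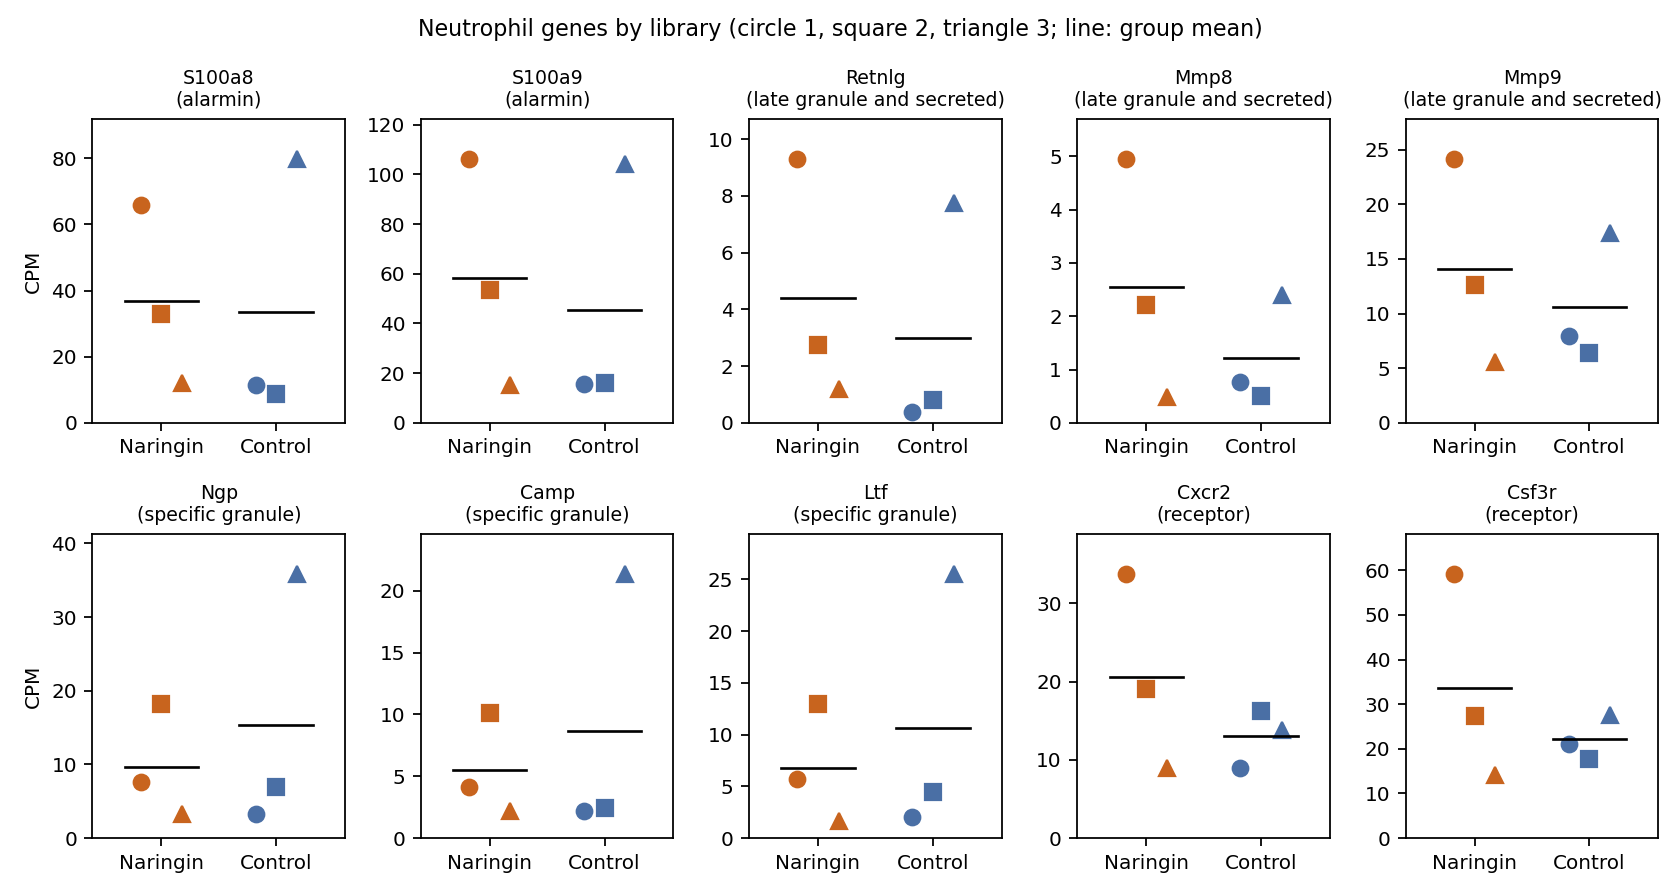
CPM of the 10 genes in each library, with a panel per gene, Naringin at left and Control at right; circles, squares and triangles are libraries 1, 2 and 3 and lines are group means, and each axis starts at 0. Naringin 1 or Control 3 holds the highest value in every panel, and the groups overlap in every panel.

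S100a8 and S100a9 encode the subunits of calprotectin, a calcium- and zinc-binding protein that fills the neutrophil cytosol and acts as an alarmin when released. S100a8 lay at 66.0, 32.8 and 12.2 CPM in Naringin 1, 2 and 3 and at 11.5, 8.67 and 79.9 CPM in Control 1, 2 and 3. Its highest library was thus a Control library, and the other 2 Control libraries lay below every Naringin library. The means were 37.0 ± 27.2 CPM with naringin and 33.4 ± 40.3 CPM in Control (SD, n = 3 each). The log2 fold was 0.53 ± 0.83 (limma's moderated SE). S100a9 lay at 106, 53.6 and 15.4 CPM in Naringin 1, 2 and 3 and at 15.5, 16.0 and 104 CPM in Control 1, 2 and 3, a log2 fold of 0.57 ± 0.84 (SE). Naringin 1 and Control 3 were nearly level for this gene, as were Naringin 3, Control 1 and Control 2. The directions of both were set by single libraries. Without Naringin 1 the log2 fold was -0.02 for S100a8 and -0.04 for S100a9, without Control 2 that of S100a8 was -0.04, and without Control 3 they were 1.49 and 1.46. The ratio of S100a9 to S100a8 stayed between 1.26 and 1.64 in the Naringin libraries and between 1.30 and 1.84 in the Control libraries, while the level of each gene varied 6.90-fold or more.

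Retnlg, a secreted resistin-like protein abundant in mature mouse neutrophils, varied most of all members, with its highest library 24.3-fold above its lowest. It lay at 9.31, 2.74 and 1.19 CPM in Naringin 1, 2 and 3 and at 0.382, 0.795 and 7.75 CPM in Control 1, 2 and 3, from 139, 41 and 17 reads with naringin and 5, 11 and 116 reads in Control. All Naringin libraries exceeded 2 of the Control libraries, but Control 3 lay above Naringin 2 and 3. The log2 fold was 0.65 ± 0.76 (SE). It was 0.04 without Naringin 1 and 1.48 without Control 3.

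Mmp8, the neutrophil collagenase, had 74, 33 and 7 reads in Naringin 1, 2 and 3 and 10, 7 and 36 reads in Control 1, 2 and 3. These correspond to 4.96, 2.20 and 0.490 CPM with naringin and 0.765, 0.506 and 2.41 CPM in Control. Naringin 1 lay above Control 3, the highest Control library, while Naringin 3 and Control 2 had 7 reads each. The log2 fold was 0.55 ± 0.51 (SE), and 0.07 without Naringin 1 and 1.07 without Naringin 3. Mmp9, the gelatinase of the late granules, which macrophages and dendritic cells also make, lay at 24.2, 12.6 and 5.53 CPM in Naringin 1, 2 and 3 and at 7.95, 6.43 and 17.4 CPM in Control 1, 2 and 3. Its log2 fold of 0.29 ± 0.50 (SE) turned to -0.18 without Naringin 1 and was 0.79 without Naringin 3. Mmp9 spanned 4.37-fold between libraries, against 10.1-fold for Mmp8.

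Ngp (neutrophilic granule protein, a relative of the cystatins and cathelicidins) lay at 7.57, 18.2 and 3.22 CPM in Naringin 1, 2 and 3 and at 3.21, 6.87 and 35.9 CPM in Control 1, 2 and 3. Camp, the precursor of the antimicrobial peptide CRAMP, lay at 4.15, 10.1 and 2.17 CPM with naringin and at 2.22, 2.46 and 21.4 CPM in Control, with the same 3 libraries on top in the same order. Ltf, the iron-binding protein lactoferrin, lay at 5.70, 12.95 and 1.68 CPM with naringin and at 1.99, 4.41 and 25.5 CPM in Control. All 3 were highest in Control 3 and second in Naringin 2, so that Naringin 1, at the top or second for the 7 mature genes, followed Naringin 2. Their log2 folds were -0.27 ± 0.80, -0.15 ± 0.75 and -0.26 ± 0.83 (SE) for Ngp, Camp and Ltf. The lower means rested on Control 3: without it the log2 folds were 0.62, 0.76 and 0.65, and without Naringin 3 they were 0.26, 0.26 and 0.36. Ngp stood at 1.33 to 1.92 times Ltf in the Naringin libraries and at 1.41 to 1.61 times Ltf in the Control libraries. Its ratio to Camp was 1.82, 1.80 and 1.48 in Naringin 1, 2 and 3 and 1.45, 2.79 and 1.68 in Control 1, 2 and 3, with Control 2 above the other libraries.

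Cxcr2, the receptor for the neutrophil-attracting CXC chemokines, lay at 33.8, 19.0 and 8.90 CPM in Naringin 1, 2 and 3 and at 8.95, 16.3 and 13.8 CPM in Control 1, 2 and 3. Naringin 1 and 2 exceeded every Control library, while Naringin 3 was nearly level with Control 1 and lay below Control 2 and 3. The means were 20.6 ± 12.5 CPM with naringin and 12.99 ± 3.72 CPM in Control (SD, n = 3 each). The log2 fold was 0.48 ± 0.42 (SE), or 0.05 without Naringin 1 and 0.95 without Naringin 3. Csf3r, the receptor for granulocyte colony-stimulating factor, lay at 59.2, 27.3 and 14.1 CPM in Naringin 1, 2 and 3 and at 21.1, 17.7 and 27.6 CPM in Control 1, 2 and 3. Its log2 fold was 0.37 ± 0.44 (SE), and -0.14 without Naringin 1 and 0.86 without Naringin 3. The receptors varied less than the granule genes, 3.80-fold for Cxcr2 and 4.21-fold for Csf3r over the 6 libraries, and 1.82-fold and 1.56-fold within the Control libraries. In those same Control libraries S100a8 varied 9.21-fold and Ngp 11.2-fold. Monocytes carry Csf3r as well, so its reads need not come from neutrophils alone.

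**Figure D2:**
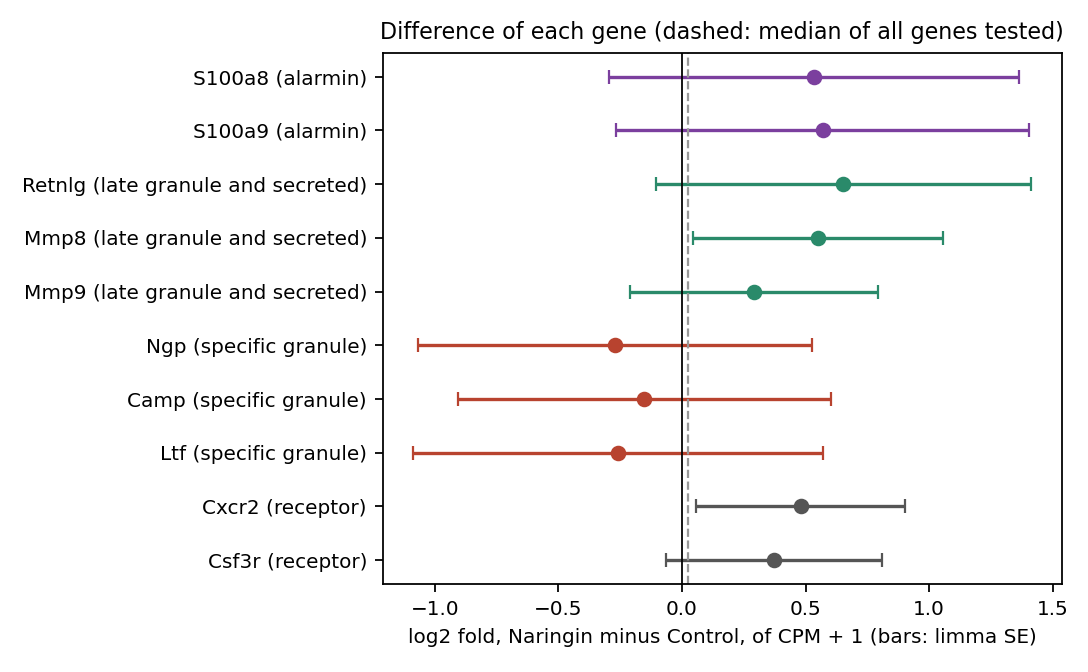
Log2 fold of each gene, Naringin minus Control, on the CPM + 1 scale, with bars of 1 limma SE (n = 3 each); the dashed line is the median of all genes tested, 0.02. The 7 mature genes lie between 0.29 and 0.65 and the 3 immature granule genes between -0.27 and -0.15, and 0 of the 10 passed the test.

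Per kilobase of exon, the median level over the 6 libraries was 66.7 CPM per kb for S100a9 and 32.4 for S100a8, the most abundant members on that scale. Csf3r at 6.71, Ngp at 5.91, Cxcr2 at 4.93 and Camp at 4.36 CPM per kb followed, then Retnlg at 3.31, Mmp9 at 2.91, Ltf at 1.46 and Mmp8 at 0.612. Neighbours in the middle of this order, from Csf3r to Mmp9, differed by less than the spread of each gene between libraries. Exon lengths were the union of all annotated exons of a gene in GENCODE M21.

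Immature and mature genes had the same 3 highest and the same 3 lowest libraries, but their proportion differed between libraries. The 7 mature genes summed to 304, 150 and 57.8 CPM in Naringin 1, 2 and 3 and to 66.2, 66.4 and 253 CPM in Control 1, 2 and 3. The 3 immature granule genes summed to 17.4, 41.2 and 7.07 CPM with naringin and to 7.42, 13.7 and 82.8 CPM in Control. The immature genes therefore supplied 5.42% of the reads of all 10 in Naringin 1 (exact Clopper-Pearson 95% interval 4.80% to 6.10%), 21.5% in Naringin 2 (20.02% to 23.1%) and 10.9% in Naringin 3 (8.97% to 13.1%). In Control 1, 2 and 3 they supplied 10.1% (8.25% to 12.2%), 17.1% (15.0% to 19.5%) and 24.7% (23.5% to 25.9%). These intervals cover counting error only. The intervals of Naringin 1 and Control 3 were far apart although both libraries were rich in the mature genes, and the shares of the groups overlapped. Ratios of single genes differed between libraries as well. Mmp8 was 1.19, 0.218 and 0.226 times Camp in Naringin 1, 2 and 3 and 0.345, 0.206 and 0.112 times Camp in Control 1, 2 and 3. Retnlg was 2.24, 0.2715 and 0.548 times Camp with naringin and 0.172, 0.3235 and 0.3625 times Camp in Control. Both ratios were highest in Naringin 1, but that of Mmp8 was lowest in Control 3 and that of Retnlg in Control 1. They rest on as few as 7 reads of Mmp8 and 5 of Retnlg.

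**Figure D3:**
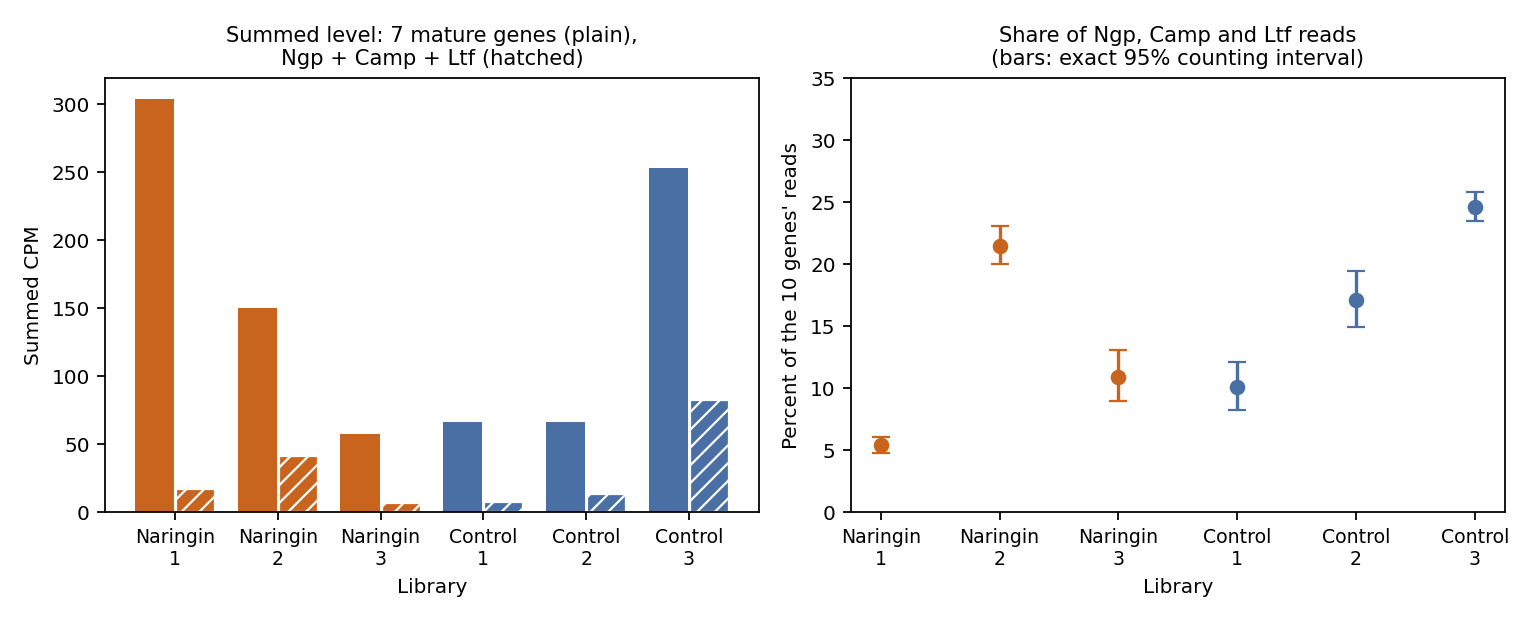
Left, summed CPM of the 7 mature genes (plain bars) and of Ngp, Camp and Ltf (hatched bars) in each library, from 0; right, the percent of the reads of all 10 genes that came from Ngp, Camp and Ltf, with exact 95% counting intervals. The share was 5.42% in Naringin 1 and 24.7% in Control 3, the libraries with the highest mature sums.

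The difference of the summed levels, Naringin minus Control, was 0.41 on the log2 scale for the mature genes and -0.24 for the immature genes, given without a test because the members were chosen with results known. Without Naringin 1 the mature difference was -0.15, without Control 3 it was 1.05 and without Naringin 3 it was 1.04. The immature difference was -0.24 without Naringin 1, 0.73 without Control 3 and 0.35 without Naringin 3. The contrast in direction between the 2 sets in the means of all libraries was thus lost when Control 3, Naringin 3 or Naringin 1 was left out.

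Genes of the steps before and around these were read from lists. Of 6 primary granule genes, the earliest made, 3 had a mean of at least 1 CPM, and 0 of these 3 passed limma's adjusted threshold, with 3 higher in mean and a median log2 fold of 0.63. Myeloperoxidase (Mpo) lay at 5.49, 1.80 and 1.61 CPM in Naringin 1, 2 and 3 and at 0.535, 0.795 and 3.68 CPM in Control 1, 2 and 3. The serine proteases Prtn3 and Ctsg lay at up to 4.89 and 4.82 CPM in Naringin 1 and up to 3.41 and 2.27 CPM in Control 3. Summed over the 6, primary granule genes stood at 17.2, 7.54 and 4.55 CPM with naringin and 1.38, 2.53 and 11.2 CPM in Control, with Naringin 1 above Control 3, as for most mature genes and unlike Ngp, Camp and Ltf. Of 11 other genes of specific and late granules, 8 were tested and 0 passed, with 7 log2 folds above 0 and a median of 0.19. Their sum is mostly Lyz2, the lysozyme that macrophages share, at 3336, 2833 and 2020 CPM with naringin and 2081, 2223 and 3503 CPM in Control, and Cybb, the NADPH oxidase subunit of all phagocytes, ranged from 120 to 198 CPM with naringin and from 109 to 140 CPM in Control. Between Naringin 1 and Control 3 the genes of this list went both ways. Chil3 lay at 31.4 and 11.1 CPM there, and Lcn2 at 13.7 and 19.0 CPM.

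Of 18 further neutrophil markers, 9 were tested and 0 passed, with 6 higher, 3 lower and a median log2 fold of 0.27. Stfa2 had 0 reads in all libraries. The histidine decarboxylase gene Hdc, also made by mast cells and basophils, lay at 9.45, 4.74 and 2.80 CPM in Naringin 1, 2 and 3 and at 1.91, 1.66 and 4.08 CPM in Control 1, 2 and 3, a log2 fold of 0.84 ± 0.40 (SE). The formyl peptide receptor Fpr2, the lectin Clec4d and the cytokine gene Il1b had log2 folds of 0.77 ± 0.48, 0.70 ± 0.33 and 0.67 ± 0.33 (SE). Each was highest in Naringin 1. The decoy receptor Il1r2, Wfdc21, Asprv1, G0s2 and the leukotriene B4 receptor Ltb4r1 had log2 folds of 0.17, 0.27, -0.01, -0.06 and -0.25. Each of these except Il1r2 was highest in Control 3.

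The ligands of the receptors were scarce. Of 7 ligand genes, 2 reached a mean of 1 CPM and 0 passed. Cxcl1, a ligand of Cxcr2, averaged 2.30 ± 0.761 CPM with naringin and 1.83 ± 0.335 CPM in Control, and Cxcl5 averaged 1.05 ± 1.04 CPM with naringin and 1.08 ± 0.861 CPM in Control (SD, n = 3 each). Csf3, the ligand of Csf3r, had 6, 5 and 10 reads in Naringin 1, 2 and 3 and 3, 0 and 1 reads in Control 1, 2 and 3. It was under the mean needed for the test and was named after its values were seen. Its groups did not overlap, as in 5.65% of all genes tested. Those of Csf2, Cxcl2, Cxcl3 and Ppbp, also under that mean, did overlap. Of the 5 alarmin receptors and protease inhibitors 0 passed, with 3 higher and 2 lower. The metalloproteinase inhibitors Timp2 and Timp3 had log2 folds of -0.08 and 0.28. Of 6 transcription factors of the granulocyte lineage 5 were tested, 5 had a log2 fold above 0 and 0 passed, with a median of 0.08. Cebpa, which opens the lineage, and Spi1, the gene of PU.1, had log2 folds of 0.01 and 0.08. Cebpb, a factor of emergency granulopoiesis that is also active in macrophages, was the only one of the 5 whose groups did not overlap, against 5.65% of all genes, and was named after its values were seen. It did not pass, was the 1 gene of the 5 at an unadjusted p under 0.05, against 1.43% of all genes, and had a log2 fold of 0.70 ± 0.21 (SE). It lay at 45.1, 29.7 and 31.0 CPM with naringin and at 21.6, 16.7 and 25.3 CPM in Control. Cebpe, the specific granule factor, had 2, 5 and 2 reads with naringin and 1, 1 and 10 reads in Control. Its highest library was Control 3, as for Ngp, Camp and Ltf but also for S100a8, Asprv1 and the mast cell protease gene Mcpt4.

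Markers of other cells of the node differed between libraries as well. Mast cell and basophil genes (8 in the list, 7 tested, 0 passed) summed to 314, 267 and 48.7 CPM in Naringin 1, 2 and 3 and to 81.8, 126 and 374 CPM in Control 1, 2 and 3. Like the neutrophil genes they were high in Naringin 1, Naringin 2 and Control 3. The macrophage, monocyte and platelet sums given next were also highest in these libraries, so the pattern of sums was not particular to neutrophil and mast cell genes. Not every gene of the monocyte and platelet lists followed it. The mast cell proteases Mcpt4 and Cma1 had log2 folds of -0.02 and 0.07. Sinus and medullary macrophage genes (8 in the list, 6 tested, 0 passed) summed to 647 to 1913 CPM with naringin and 836 to 1652 CPM in Control. Their most abundant genes were the scavenger receptor Marco, at 303 to 913 CPM with naringin and 339 to 733 CPM in Control, and the complement gene C1qa, at 190 to 369 CPM with naringin and 224 to 506 CPM in Control. Monocyte genes (8 in the list, 8 tested, 0 passed) summed to 546 to 1098 CPM with naringin and 631 to 972 CPM in Control. Among them Csf1r, the receptor for macrophage colony-stimulating factor, lay at 138 to 435 CPM with naringin and 190 to 394 CPM in Control, and Ly6c2 at 185 to 223 CPM with naringin and 141 to 291 CPM in Control. Csf1r, Fcgr1 and Plac8 were highest in Naringin 1, Naringin 2 and Control 3, but Ly6c2, Ccr2, F13a1, Cx3cr1 and Itgam were not. Ccr2 and F13a1 were lowest in Control 3, at 46.5 and 6.215 CPM. Platelet genes (6 in the list, 2 tested, 0 passed) summed to 32.9 to 80.1 CPM with naringin and 33.5 to 76.5 CPM in Control. Most of this came from Itga2b, the platelet integrin chain, at 30.3 to 74.7 CPM with naringin and 24.0 to 69.6 CPM in Control. Pf4, which platelets pack into their granules, lay at 1.82 to 4.96 CPM with naringin and 2.31 to 9.33 CPM in Control. Unlike Itga2b, Pf4 was highest in Control 1. The platelet genes Gp9, Gp1bb, Gp5 and Ppbp had at most 5, 1, 4 and 8 reads with naringin. In Control they had at most 4, 8, 2 and 11 reads. Of these lists, 3 had their lowest and highest sums in Naringin 3 and Naringin 1, as did Mmp8, Mmp9, Cxcr2, Csf3r and S100a9. The part of these cells in the neutrophil gene levels was not tested.

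Red cell genes, a measure of blood in the sample, ran differently in part. Their 5 genes summed to 55.2, 58.8 and 56.0 CPM in Naringin 1, 2 and 3 and to 35.8, 32.1 and 49.6 CPM in Control 1, 2 and 3, and 0 of 5 passed. At limma's unadjusted p under 0.05 there were 3 of the 5, against 1.43% of all genes. In 2 of the 5 the groups did not overlap, against 5.65% of all genes. Hba-a1 averaged 18.6 ± 1.04 CPM with naringin and 13.2 ± 3.28 CPM in Control, and Hbb-bs 28.2 ± 3.11 CPM with naringin and 19.2 ± 5.04 CPM in Control (SD, n = 3 each). Naringin 3, with the lowest neutrophil sum of all libraries, had a red cell sum close to that of Naringin 1. Control 3 had the highest sum of the Control libraries for both red cell and neutrophil genes. The part of blood in the neutrophil gene levels was not tested. Eosinophil genes (8 in the list, 4 tested, 0 passed) summed to 23.9 to 30.8 CPM with naringin and 22.9 to 27.5 CPM in Control, led by Il5ra and Ear2. Of their defining genes, the granule protein genes Prg2 and Epx had 16 to 28 and 2 to 6 reads with naringin and 12 to 58 and 0 to 9 reads in Control, and the surface receptor Siglecf had 3 to 8 reads with naringin and 6 to 7 reads in Control. T cell genes, among them Cd8a and Lck, summed to 1148 to 1490 CPM with naringin and 1422 to 1528 CPM in Control, and 0 of 5 tested passed. Adipocyte genes, among them Fabp4 and Car3, summed to 34.3 to 63.7 CPM with naringin and 48.2 to 117 CPM in Control, and 0 of 4 tested passed.

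**Figure D4:**
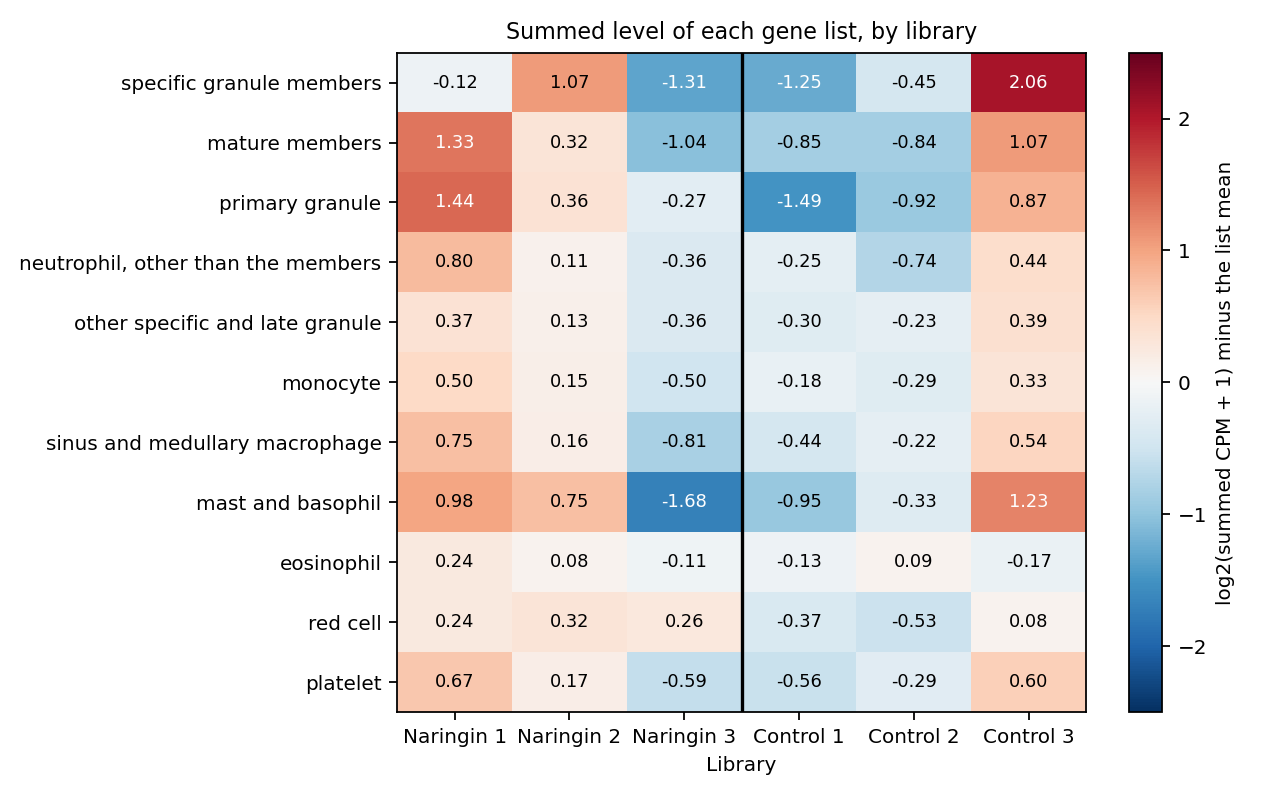
Log2 of the summed CPM + 1 of each gene list in each library, less the mean of that list over the 6 libraries; rows are lists, columns are libraries with Naringin at left, red is above and blue below the mean. The specific granule members Ngp, Camp and Ltf stand at -0.12 in Naringin 1 and 2.06 in Control 3, while the mature genes stand at 1.33 and 1.07, and red cell genes are above their mean in all Naringin libraries.

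By a rule of likeness, the mean absolute difference between log2 deviations over the 6 libraries, 1974 genes with at least a 1-unit log2 range were set against the mean profile of the 10. The nearest was Lcn2, lipocalin 2, a specific granule protein, with a difference of 0.17. It lay at 13.7, 8.95 and 2.45 CPM in Naringin 1, 2 and 3 and at 2.37, 3.04 and 19.0 CPM in Control 1, 2 and 3. Ccn5, Cpe, Slc45a3 and Syndig1l followed with differences of 0.18 to 0.22. The members themselves lay 0.26 (Mmp9) to 0.55 (Ltf) from their own mean profile. Likeness over 6 libraries is a description of these libraries.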

How the data were processed

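The 10 genes and all lists were chosen with earlier results of these data known. Per the submitters' processing notes, the tools were Trimmomatic 0.39, STAR 2.7.9a, featureCounts of Subread 1.6.0 and edgeR 3.40.0, with build mm39; no label states the annotation or whether counting used strand, so reads that overlapping genes share cannot be assigned. The authors deposited CPM, each gene's reads per 1000000 reads of the column total, with no further scaling. Columns are numbered 1 to 6 and were matched to the running number of each title. All values above 0 were whole multiples of 1 read within 0.01 of a read, so whole reads were recovered. Analysis used log2(CPM + 1), genes whose mean reached 1 CPM, and limma 3.58.1 (R 4.3.3) with trend and robust moderation, 2-sided, with Benjamini-Hochberg adjustment at 0.05. edgeR 4.0.16 and DESeq2 1.42.0 were run on recovered reads as alternatives. These steps were tested on simulated reads. All 10 members are named; of the primary granule, ligand and neutrophil lists, those at or above that mean; of other lists, the 2 highest. Ly6g, Stfa2, Chil3, Csf3, Cebpb, Cebpe, Prg2, Epx, Siglecf and the TTGGGCAA form were added after their values were seen. So were Csf2, Cxcl2, Cxcl3, Ppbp, Ccr2, Cx3cr1, F13a1, Fcgr1, Itgam, Plac8, Gp1bb, Gp5 and Gp9. Pseudocount, filter, scaling, replicate block, moderation and single libraries were varied. One list that the rule takes is not reported here.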

Additional observations from a re-analysis of the deposited data

How the results depend on the processing

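The count of genes called in limma, 0, was 0 under every other pseudocount, filter, scaling and moderation tried, in edgeR, and with the replicate block. DESeq2 called 3 (Cd209g, Cd209f and Fgf23), and leaving out 1 library gave 0 to 1 call, the 1 being Cxcr4 without Control 3. Under the alternatives that kept all 6 libraries, all 108 values obtained for single members kept their direction and their side of the threshold. All 18 values for the summed levels, which have no threshold, kept their direction. The filters, the replicate block and the change of moderation cannot move a member's limma fold, and the block cannot move a sum. The direction of those values was therefore fixed in advance. The count models moved several folds: in edgeR and DESeq2 those of S100a8 were 0.096 and 0.090, of S100a9 0.32 and 0.31, of Mmp8 both 1.01, of Ngp both -0.72, of Camp -0.72 and -0.73, of Ltf -0.70 and -0.71 and of Csf3r 0.58 and 0.57, and the cause was not tested. Under scalings the median of all genes moved from 0.0248 to between -0.0147 and 0.0183. Without a filter 615 genes had an unadjusted p under 0.05, against 213. With 1 library left out that count ran from 72 without Naringin 2 to 1391 without Control 3. Without Naringin 3 it was 513 of 14873 genes. Those 513 held Mmp8, Cxcr2 and Csf3r, with limma's unadjusted p at 0.040, 0.020 and 0.037 and an adjusted p of 0.9998 each. Without the genes under a mean of 5 CPM, Retnlg and Mmp8 gave no value. Leaving out 1 library moved the members far more. Their log2 folds ran from -0.039 to 1.49 for S100a8, -0.044 to 1.46 for S100a9, 0.04 to 1.48 for Retnlg, 0.07 to 1.07 for Mmp8, -0.18 to 0.79 for Mmp9, -0.94 to 0.62 for Ngp, -0.64 to 0.76 for Camp, -0.93 to 0.65 for Ltf, 0.05 to 0.95 for Cxcr2 and -0.14 to 0.86 for Csf3r. The differences of the summed levels ran from -0.17 to 1.04 for all 10, -0.15 to 1.05 for the mature and -0.93 to 0.73 for the immature genes. The cause was not tested. The replicate numbers gave no sign of pairing. Same-numbered libraries had correlations of deviations from group means of -0.257, -0.019 and -0.269, and other pairs ran from -0.129 to 0.305. With 3 libraries a group these correlations are tied to each other, so they cannot exclude pairing. With the replicate block 157 genes had an unadjusted p under 0.05. With 3 libraries a group and standard errors of 0.42 to 0.84, differences of the size seen here were not detectable.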
